A study of Mus musculus with 8 samples.

Results

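The genes described here encode the oxidative phosphorylation system of CD8 T cells from spleen and liver. They were all rows of the deposited matrices whose symbol starts with Nduf, Uqcr, Cox4, Cox5, Cox6, Cox7, Cox8 or Atp5, together with the protein genes of mitochondrial DNA. The rule used names only and found 102 of 31053 genes, 89 of them nuclear and 13 mitochondrial. Of the 89 nuclear genes, 80 were counted as subunits, 8 are assembly factors named Ndufaf, and Atp5s is a coupling factor kept apart with them. The nuclear subunits comprised 36 of complex I, 8 of complex III, 20 of complex IV and 16 of complex V, and Ndufa4 and Ndufa4l2 were placed in complex IV. The complex V rows include a readthrough row of Atp5o beside Atp5o itself.

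CD8 T cells were sorted from wild-type (WT) C57BL/6 mice and from mice homozygous for an Eomes transgene (EomesTG, genotype EomesTg/Tg), which express Eomes in T cells. Eomes is a T-box factor found in memory CD8 T cells and NK cells. The series asked what added Eomes does to gene expression and clonal growth of these cells in the 2 organs. Cells of 3 mice per strain were pooled before sorting, and each of the 4 groups (2 genotypes in 2 organs) is 1 droplet library made with 5′ chemistry plus 1 library of T cell receptors (TCR). The sources used here give neither the promoter of the transgene nor the age or sex of the mice, and they name no treatment.

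Oxidative phosphorylation passes electrons from NADH and succinate through complexes I, II, III and IV to oxygen and uses the resulting proton gradient to make ATP in complex V. Complexes I, III, IV and V each combine proteins encoded in the nucleus with a few core proteins encoded in mitochondrial DNA, while complex II is wholly nuclear. Nuclear subunit genes are transcribed singly, whereas the mitochondrial genes are transcribed as long precursors from both strands and then cut. Naive T cells rest largely on this pathway, and dividing T cells enlarge their mitochondria.

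Lists of 4 values follow the order WT spleen, EomesTG spleen, WT liver, EomesTG liver. After filtering these libraries kept 5335, 5726, 3150 and 4521 cells. The cells held 28760172, 28282240, 19137483 and 20572245 unique molecular identifiers (UMIs, counts of RNA molecules), with medians of 5023, 4751.5, 5463 and 3919 per cell. Eomes stood at 86.9, 134.3, 84.1 and 181.7 UMIs per 1000000 UMIs of the library (CPM), higher in both EomesTG libraries, although transgene and endogenous reads were not separated. The T cell label was met by 4749 to 7175 CPM over 6 pan-T genes and by Cd8a at 496.3 to 930.9 CPM, while Cd4 did not exceed 0.31 CPM. Summed B cell markers lay at 113.5 to 271.9 CPM, 5 of 5 genes being found, and 7 myeloid or dendritic markers at 99.6 to 340.8 CPM. The 6 hepatocyte or endothelial markers lay at 13.6 to 42.6 CPM, with Alb at 0.03, 0, 7.94 and 0.34 CPM. Between 23 and 57 cell barcodes were shared by any pair of libraries.

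Each group is a single library, which leaves no spread between mice to test against, so every range in brackets is an exact 95% interval that covers counting error only. A gene was compared when it had at least 50 UMIs over both sides, and it is called higher or lower where the difference was at least 0.32 on the log2 scale with the interval on that side of equality. In a pooled library, fewer cells of one kind and less RNA per cell cannot be told apart, and classes of cells are therefore given further on.

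Transcripts of the mitochondrial genes were scarcer in liver than in spleen and scarcest in EomesTG liver, whereas the summed nuclear subunits varied little. The 13 mitochondrial genes together stood at 29318 CPM [29255 to 29381] in spleen of WT, 28229 [28167 to 28291] in spleen of EomesTG, and 24103 [24034 to 24173] and 18278 [18220 to 18337] in the livers. The nuclear subunits stood at 19360 CPM [19309 to 19411], 18213 [18164 to 18263], 20214 [20150 to 20278] and 20842 [20779 to 20904]. Mitochondrial UMIs per nuclear subunit UMI were 1.51, 1.55, 1.19 and 0.877, so only the EomesTG liver library held fewer mitochondrial than nuclear subunit UMIs.

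As log2 ratios, the mitochondrial sum differed by -0.05 [-0.06 to -0.05] between EomesTG and WT spleen and by -0.40 [-0.41 to -0.39] between EomesTG and WT liver. Between liver and spleen it differed by -0.28 [-0.29 to -0.28] in WT and by -0.63 [-0.63 to -0.62] in EomesTG. The nuclear sum differed by -0.09 [-0.09 to -0.08], 0.04 [0.04 to 0.05], 0.06 [0.06 to 0.07] and 0.19 [0.19 to 0.20] in the same 4 comparisons, and the last 3 of these turned negative when libraries were scaled outside mitochondrial and ribosomal protein genes (-0.11, -0.10 and -0.13) or by median-of-ratios size factors (-0.06, -0.02 and -0.0046). The median of all compared genes was -0.01, 0.12, 0.06 and 0.19, and the medians of the nuclear subunits were -0.06, 0.01, 0.08 and 0.15, below it in 3 of the 4. Under both of those scalings the mitochondrial sum stayed lower in all 4 comparisons, at -0.51 and -0.56 for the genotypes in liver.

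The EomesTG liver library was lowest at every depth of cells. Among cells with 4000 to 8000 UMIs the mitochondrial genes stood at 29476, 27913, 24883 and 18654 CPM, and among cells with 2000 to 4000 UMIs at 31671, 30522, 25237 and 16664 CPM. Above 8000 UMIs the sums were 26854, 25947, 22026 and 17533 CPM. Below 2000 UMIs they were 36323, 36308, 40373 and 28952 CPM, and there WT liver was the highest. The filter that keeps cells under 10% mitochondrial UMIs acts on members themselves. Over all deposited barcodes the sums were 29901, 28509, 37557 and 19683 CPM, so WT liver was then above WT spleen. In WT liver the filters had removed 177 barcodes, 101 of them with too few genes or UMIs. With only the mitochondrial limit lifted, the log2 ratio between liver and spleen of WT was -0.20, beside -0.28 with the limit.

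**Figure D1:**
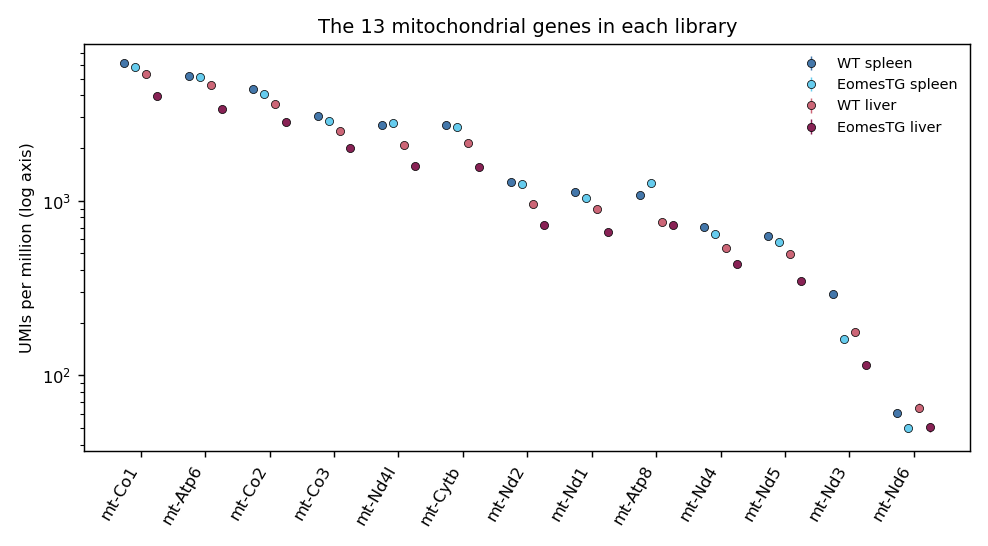
The 13 mitochondrial protein genes in CPM (logarithmic axis) in the 4 libraries, with exact 95% counting intervals. EomesTG liver is the lowest of the 4 libraries for every gene except mt-Nd6, whose lowest value of 49.82 CPM is in EomesTG spleen.

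The gap was shared by all 4 complexes on the mitochondrial side. In complex I, the NADH dehydrogenase, the 7 mitochondrial subunits together stood at 6792.2, 6490.0, 5204.7 and 3910.4 CPM. In complex III, the cytochrome bc1 complex, mt-Cytb stood at 2696, 2652, 2146 and 1557 CPM. In complex IV, cytochrome c oxidase, the 3 core subunits stood at 13597, 12761, 11402 and 8760.8 CPM, and the 2 of complex V, the ATP synthase, at 6232.5, 6325.7, 5350.1 and 4050.6 CPM. The order from spleen to WT liver to EomesTG liver was thus the same in each complex. Between the genotypes in liver the log2 ratios were -0.41 [-0.43 to -0.40], -0.46 [-0.48 to -0.44], -0.38 [-0.39 to -0.37] and -0.40 [-0.41 to -0.39] for complexes I, III, IV and V.

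The nuclear subunits of the same complexes did not follow. Complex I nuclear subunits stood at 5565.2, 5200.0, 5632.4 and 5777.5 CPM, complex III at 1913.7, 1867.6, 1969.3 and 1999.2, complex IV at 5109.5, 4779.3, 5532.8 and 5971.2, and complex V at 6771.5, 6366.5, 7079.4 and 7093.6. Complex IV showed the widest spread of the 4. Its nuclear sum was 0.11 [0.10 to 0.12] higher on the log2 scale in EomesTG than in WT liver, but 0.0021 with median-of-ratios size factors and -0.046 with scaling outside mitochondrial and ribosomal protein genes. Between EomesTG liver and EomesTG spleen it was at 0.32 [0.31 to 0.33], and at 0.12 and -0.0075 under those scalings. Complexes I, III and V were at 0.15, 0.098 and 0.16 in the latter comparison, and negative under both scalings (-0.047, -0.10 and -0.043, then -0.18, -0.23 and -0.17).

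Single mitochondrial genes followed their sums, with 3 exceptions. mt-Co1, the catalytic subunit of cytochrome c oxidase, stood at 6150, 5814, 5303 and 3953 CPM. mt-Atp6, the proton channel subunit of the ATP synthase, stood at 5151, 5068, 4596 and 3326 CPM. mt-Co3, another core subunit of complex IV, stood at 3066, 2865, 2507 and 1991 CPM, and mt-Nd1, a membrane subunit of complex I, at 1121, 1041, 888.9 and 660.5 CPM. All 4 were lowest in EomesTG liver. mt-Co1 and mt-Atp6 had log2 ratios of -0.42 [-0.44 to -0.41] and -0.47 [-0.48 to -0.45] to WT liver. Lower in EomesTG than in WT liver were 11 of the 13 genes and 12.2% of all 10876 genes compared, and higher were 0 of 13 against 24.9%. The 2 not called were mt-Atp8 and mt-Nd4, at -0.06 and -0.30.

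Between liver and spleen, 8 of 13 mitochondrial genes were lower in WT (8.38% of all genes) and 12 of 13 in EomesTG (15.1%). None was higher, against 19.3% and 37.4% of all genes. The genotypes in spleen differed in 1 of 13, against 6.18% of all genes higher and 8.46% lower: mt-Nd3, a small membrane subunit of complex I, stood at 291, 160.1, 176 and 115 CPM. Its WT spleen value was the highest of the 4, with a log2 ratio of -0.86 [-0.92 to -0.81] between the genotypes in spleen. mt-Nd6, the complex I subunit encoded on the light strand, stood at 60.4, 49.8, 65.3 and 50.2 CPM, did not share the liver-to-spleen difference (0.11 in WT and 0.01 in EomesTG), and overlaps mt-Nd5 on the other strand by 14 bases. The sources used here do not say whether the counting used strand.

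The third exception was mt-Atp8, a short membrane subunit of the ATP synthase, whose reading frame runs into that of mt-Atp6. It stood at 1081, 1257, 753.7 and 724.2 CPM. It was thus highest in EomesTG spleen, where mt-Atp6 was not, with a log2 ratio of 0.22 [0.20 to 0.24] between the genotypes in spleen. The same sign appeared within classes of cells defined further on: in naive-like cells of spleen it stood at 1111 CPM in WT and 1268 in EomesTG, in memory-like cells at 1133 and 1304, and in effector-like cells at 1002 and 1261. In liver it stood at 825.2 and 1032 CPM in naive-like cells and at 687.8 and 832.5 CPM in effector-like cells. In all 5 of these pairs EomesTG was higher, by 0.19 to 0.33 on the log2 scale. The gene is shown because it shares its last 43 bases (21.1% of its length, capitals) with the start of mt-Atp6, so that reads there belong to both. It covers chrM:7766-7969 on the plus strand (GENCODE M21, GRCm38), with the shared part at chrM:7927-7969:
mt-Atp8: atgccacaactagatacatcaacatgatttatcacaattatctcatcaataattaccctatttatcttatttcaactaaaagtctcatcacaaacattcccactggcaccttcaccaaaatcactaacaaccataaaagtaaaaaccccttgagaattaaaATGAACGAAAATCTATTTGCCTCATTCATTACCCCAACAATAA

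Of the 80 nuclear subunit genes, 72 had enough UMIs to be compared in each pair of libraries, and few of these differed between the genotypes. In spleen 0 of 72 were higher in EomesTG (6.18% of all genes) and 3 lower (8.46%), with a median of -0.06. In liver 1 of 72 was higher (24.9%) and 1 lower (12.2%), with a median of 0.01 beside 0.12 for all genes. Median-of-ratios size factors gave 0 higher and 5 lower there, and scaling outside mitochondrial and ribosomal protein genes 0 and 6. Between liver and spleen of WT 1 was higher (19.3%) and 0 lower (8.38%), with a median of 0.08, and those scalings gave 1 and 1, then 1 and 3.

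The direction between liver and spleen of EomesTG rested on the scaling. There 17 of 72 subunits were higher in liver (37.4% of all genes) and 2 lower (15.1%), with a median of 0.15 beside 0.19. Median-of-ratios size factors gave 5 higher and 6 lower, beside 25.4% and 24.3% of all genes, with a median of -0.05 beside -0.0074. Scaling outside mitochondrial and ribosomal protein genes gave 1 higher and 16 lower, beside 20.5% and 33.0%, with a median of -0.18 beside -0.14. The mitochondrial genes had 0 higher and 12 lower under all 3.

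**Figure D2:**
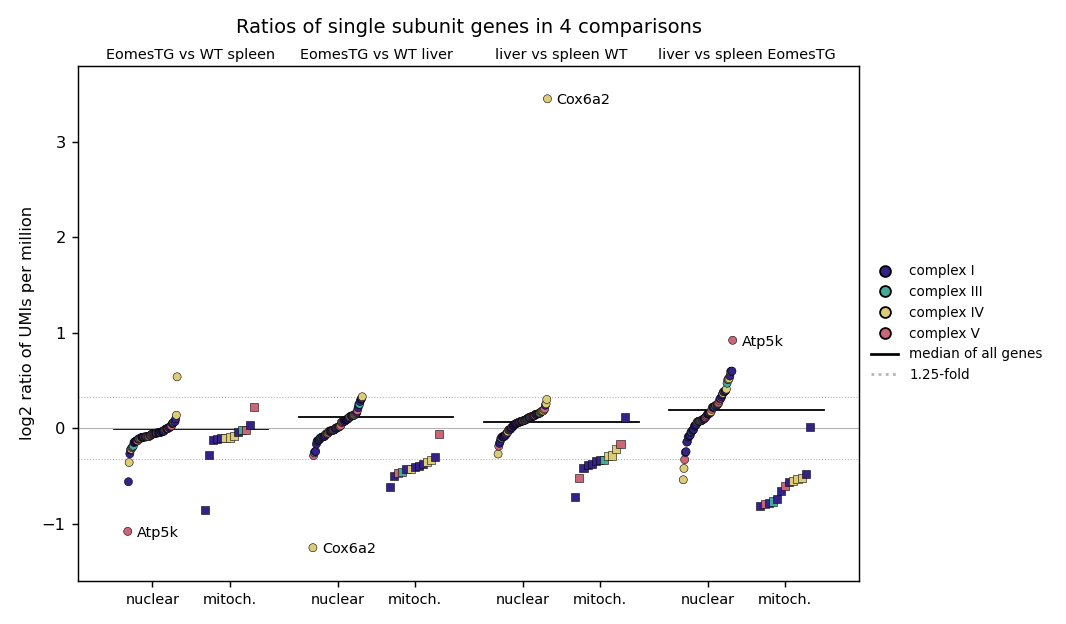
Log2 ratios of CPM for every compared nuclear (circles) and mitochondrial (squares) subunit gene in the 4 comparisons, coloured by complex, with dotted lines at 0.32 either way and a black line at the median of all genes. Nuclear genes scatter on both sides of the black line, and their median lies below it in every comparison except WT liver to spleen. Mitochondrial genes lie below the line in both liver-to-spleen comparisons except mt-Nd6 in WT.

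Cox8a, a small nuclear subunit of complex IV (chr19:7215153-7217616), stood at 783.3, 737.8, 885.2 and 1112 CPM. EomesTG liver was highest, with a log2 ratio of 0.33 [0.30 to 0.36] to WT liver and of 0.59 [0.57 to 0.62] to EomesTG spleen. It was the only nuclear subunit called higher than in WT liver, and that call was lost with median-of-ratios size factors (0.22), with scaling outside mitochondrial and ribosomal protein genes (0.17) and with each clone counted once (0.014). Ndufb7 (chr8:83566671-83571626) stood at 155.6, 141.6, 172.8 and 214.3 CPM. Ndufb8 (chr19:44548572-44555440) stood at 131.3, 118.3, 145.2 and 179.1 CPM. Both are accessory subunits of complex I, were highest in EomesTG liver, and had log2 ratios of 0.31 and 0.30 to WT liver, just under the threshold. With each clone counted once Ndufb7 was at 0.35 and Ndufb8 at -0.021. Ndufa5, another accessory subunit of complex I, and Uqcrb, a subunit of complex III, followed at 0.28 and 0.25.

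The opposite direction was taken by Atp5g2, 1 of 3 genes that encode the same mature c subunit of the ATP synthase rotor (chr15:102662864-102672352). It stood at 896.2, 887.5, 861.8 and 706.1 CPM, lowest in EomesTG liver, at -0.29 [-0.32 to -0.26] to WT liver and -0.33 [-0.36 to -0.30] to EomesTG spleen. Its paralogs Atp5g1, at 282, 281.3, 279.2 and 254.1 CPM, and Atp5g3, at 564.8, 522.6, 620.3 and 598.9 CPM, were called in none of the 4 comparisons. Uqcrfs1, the Rieske iron-sulfur protein of complex III, Ndufb11 and Ndufa9, both of complex I, were at -0.26, -0.24 and -0.24 between the genotypes in liver. Cox7a2l, counted here with complex IV (chr17:83501918-83517330), stood at 256.9, 282.2, 212.9 and 210.6 CPM and was lower in liver than in spleen, at -0.27 [-0.33 to -0.22] in WT and -0.42 [-0.48 to -0.37] in EomesTG.

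Cox5b and Cox5a, nuclear subunits near the catalytic core of complex IV, were the highest compared nuclear subunits after Cox6a2 in WT liver against WT spleen. Cox5b stood at 408.5, 384.2, 503.3 and 547.5 CPM, and Cox5a at 294.9, 282.8, 351.9 and 338.5 CPM. Both liver libraries lay above both spleen libraries for each gene. Their log2 ratios between liver and spleen were 0.30 [0.26 to 0.34] and 0.26 in WT and 0.51 [0.47 to 0.55] and 0.26 in EomesTG, where scaling outside mitochondrial and ribosomal protein genes gave 0.18 and turned Cox5a to -0.069. Atp5h, a stalk subunit of complex V, was the fifth highest in WT, at 504.8, 512.5, 580.7 and 606.4 CPM. The lowest in WT included Ndufb4, at 155.7, 150.1, 141.3 and 125.9 CPM, and Ndufa7, at 309.6, 285.9, 287.3 and 270.3 CPM, both accessory subunits of complex I.

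The 3 nuclear subunits called lower in EomesTG spleen were all low in that library alone. Atp5k, a small membrane subunit that helps ATP synthase form dimers (chr5:108433244-108434448), stood at 225.5, 106.5, 197.9 and 201.7 CPM. Ndufa3, an accessory subunit of complex I (chr7:3617373-3620327), stood at 421.1, 285.3, 396.1 and 416.7 CPM. Cox7c, a small subunit of complex IV (chr13:86044816-86046904), stood at 617.5, 481.2, 622.5 and 689.7 CPM. The other 3 libraries lay close together for each gene. The log2 ratios between the genotypes in spleen were -1.08 [-1.15 to -1.02], -0.56 [-0.60 to -0.52] and -0.36 [-0.39 to -0.33]. Next lowest were Ndufb2, at 113 and 93.77 CPM in WT and EomesTG spleen (-0.27 [-0.34 to -0.19]), and Ndufa1, at 203.7 and 174.1 CPM (-0.23), both accessory subunits of complex I. Among the highest was Ndufb10, also of complex I, at 189.8 and 199.1 CPM (0.069).

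The 3 genes and mt-Nd3 were also lower in EomesTG within each of the 3 large classes of spleen. Atp5k stood at 202.8 CPM in WT and 103.0 in EomesTG among naive-like cells, at 196.8 and 101.7 among memory-like cells, and at 241.4 and 121.6 among effector-like cells. The log2 ratios in the 3 classes were -0.98 [-1.06 to -0.90], -0.95 and -0.99 for Atp5k, each smaller in size than over all cells. They were -0.51, -0.55 and -0.63 for Ndufa3, -0.31, -0.27 and -0.36 for Cox7c, and -0.88, -0.80 and -0.67 for mt-Nd3. Cox7c passed the threshold in effector-like cells only. In liver Atp5k stood at 158 and 129 CPM in naive-like cells and at 196.2 and 167.2 CPM in effector-like cells of WT and EomesTG, which is -0.29 [-0.44 to -0.15] and -0.23 [-0.47 to -0.00].

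Transcript length moved with this difference. The median protein-coding transcript of Atp5k has 321.5 bases, that of Ndufa3 433 and that of mt-Nd3 348. Nuclear members here include the assembly factors and Atp5s. Among nuclear members under 500 bases the median log2 ratio in spleen was -0.133 (11 genes), and among those of 1000 to 2000 bases it was -0.0327 (17 genes). Called lower were 2 of the 11 under 500 bases and 2 of 30 from 500 to 700 bases, Cox7c among the latter. Over all genes, 31 of 177 under 500 bases were lower in EomesTG spleen. From 500 to 700 bases it was 47 of 587, from 700 to 1000 bases 90 of 1189, and from 1000 to 2000 bases 260 of 2825. At 2000 bases or more it was 403 of 5291, so only the shortest group had a larger share. The all-gene median was -0.063 under 500 bases and -0.0004 at 2000 or more. Short members did not all share it: mt-Atp8 (204 bases) and mt-Nd4l (297 bases) were at 0.22 and 0.03, and Ndufa6 and Uqcrh at -0.00 and 0.07. Ndufb2 was at -0.27 with a median transcript of 2413 bases. The part of transcript length in the result was not tested.

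**Figure D3:**
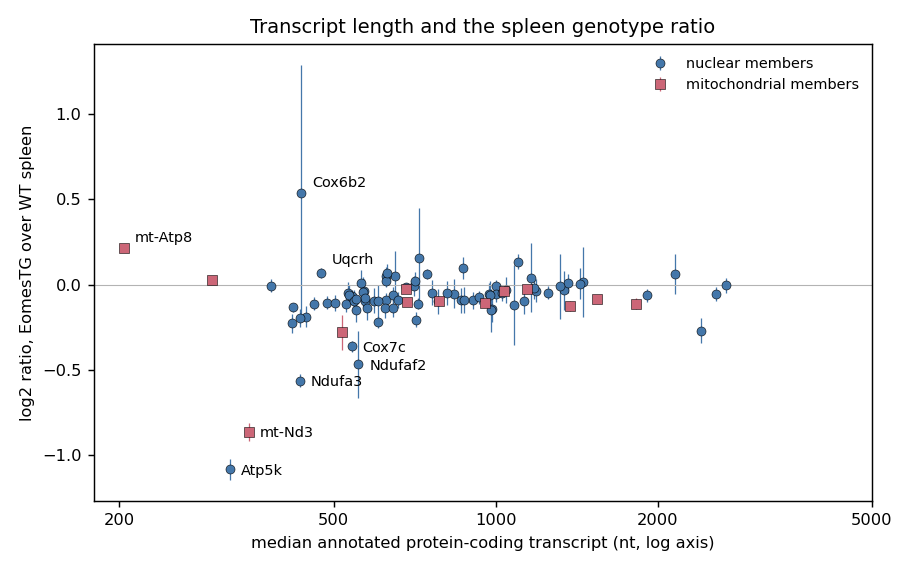
Log2 ratio of CPM between EomesTG and WT spleen against the median length of protein-coding transcripts (logarithmic axis, bases) for the compared nuclear and mitochondrial members, assembly factors and Atp5s included. The lowest points, Atp5k at -1.08, mt-Nd3 at -0.86 and Ndufa3 at -0.56, all lie under 500 bases, and other genes of that length lie near 0.

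Some subunits of complex IV exist as alternative isoforms for muscle, testis or lung. The widely expressed forms were present throughout: Cox4i1 stood at 692.2, 723, 730.5 and 763.4 CPM, Cox6a1 at 252, 236.3, 285.7 and 279, Cox6b1 at 385.8, 358.7, 441.4 and 462.4, and Cox7a2 at 267.4, 251.4, 298.3 and 327.9. Ndufa4, now counted with complex IV, stood at 396.1, 366.9, 385.6 and 390.7 CPM. Of the alternative forms, Cox4i2 and Cox8b had 1 UMI each over the 4 libraries and Cox7b2, Cox8c and Ndufa4l2 had 0. The testis form Cox6b2 had 28, 40, 20 and 20 UMIs and the muscle form Cox7a1 12, 10, 12 and 24 UMIs. None of the alternative forms reached 3 CPM in any library.

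Cox6a2, the muscle form of Cox6a1, had 7, 7, 51 and 23 UMIs, at 0.24, 0.25, 2.66 and 1.12 CPM. It gave the single nuclear call between WT liver and WT spleen, at 3.45 [2.31 to 4.84], and the single lower call between the genotypes in liver, at -1.25 [-2.03 to -0.52]. These values rest on few cells: 35 of the 51 UMIs of WT liver lay in 4 barcodes and 10 of the 23 of EomesTG liver in 1. Of these 5 barcodes, 3 held 13, 20 and 29 UMIs of Siglech, a gene of plasmacytoid dendritic cells, and 83, 168 and 149 UMIs of H2-Aa and Cd74, with 0 UMIs of Cd3 genes. Another held 12 Cox6a2 UMIs beside 45 Cd3 UMIs. When 14 WT liver, 4 EomesTG liver and 2 WT spleen barcodes with B cell or myeloid genes and no Cd3 UMI were left out, a choice made after seeing the data, the numbers of nuclear subunits called fell to 1 between the genotypes in liver and 0 between WT liver and spleen.

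Cells were then grouped into 14 clusters without using any of these genes, and clusters were named where markers allowed. Shares of the classes differed strongly between libraries: naive-like cells made up 55.5%, 74.0%, 45.5% and 15.9%, and effector-like cells 10.8%, 5.71%, 23.4% and 5.46%. A class led by inhibitory receptor genes (Pdcd1, Lag3 and others) made up 66.7% of EomesTG liver (3017 cells), and 97.4% of its cluster came from that library, so the class cannot be told apart from the library. Naive-like cells were mostly of clusters 3, 7 and 5 in WT spleen, of cluster 0 in EomesTG spleen and of cluster 4 in both livers, and effector-like cells of cluster 6 in spleen and 8 in liver. Cluster 4 was led by Fos, Jun and Klf2 and held 2343 CPM of Ccl5, a memory gene, against 64.83 to 360.2 in the other naive-like clusters.

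The genotypes in liver had nearly equal mitochondrial sums in naive-like, effector-like and NK-like cells, but not in cycling-like cells. In naive-like cells the mitochondrial genes stood at 26471 CPM in WT [26364 to 26578] and 25676 in EomesTG [25522 to 25831], a log2 ratio of -0.04 [-0.05 to -0.03]. In effector-like cells they stood at 22287 [22134 to 22442] and 21747 [21480 to 22017], also -0.04 [-0.06 to -0.01]. NK-like cells were at -0.04 [-0.08 to 0.0025] and memory-like cells at 0.08 [0.04 to 0.12]. Cluster 10, which was left unnamed, stood at 22137 and 19983 CPM, or -0.15 [-0.18 to -0.12]. Cycling-like cells (205 and 187) stood at 20761 and 15770 CPM, and their ratio of -0.40 [-0.42 to -0.38] was close to that over all cells. Leaving the inhibitory-receptor-like cells out of all libraries, a choice made after seeing the data, gave -0.12 between the genotypes in liver and -0.35 between liver and spleen of EomesTG.

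In naive-like liver cells 0 of 71 nuclear subunits were higher in EomesTG (4.28% of all genes) and 1 lower (8.09%), Ndufs8 of complex I, at 78.14 and 59.46 CPM. Of the mitochondrial genes, mt-Atp8 was higher and mt-Nd6 lower. In effector-like liver cells 0 of 71 were higher (4.61% of all genes) and 0 lower (3.7%), and of the mitochondrial genes mt-Nd3 was lower. Memory-like cells, few in liver (61 and 57), stood at 30755, 29385, 25348 and 26768 CPM of mitochondrial genes. In naive-like cells the 4 values were 29858, 28405, 26471 and 25676, and in effector-like cells 26995, 27627, 22287 and 21747. As a share of UMIs, liver cells of each of these 3 classes thus lay below spleen cells of the same class in both genotypes. Mostly different clusters hold the naive-like and effector-like classes in the 2 organs, while memory-like cells are of cluster 2 throughout. Mitochondrial UMIs per cell were 149.4, 134.2, 165.2 and 148.3 in naive-like cells. They were 173.8, 162.8, 157.9 and 176.2 in memory-like cells, and 118.2, 116.8, 109.7 and 102.2 in effector-like cells. Per cell, naive-like cells of both genotypes and memory-like cells of EomesTG thus held more in liver.

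**Figure D4:**
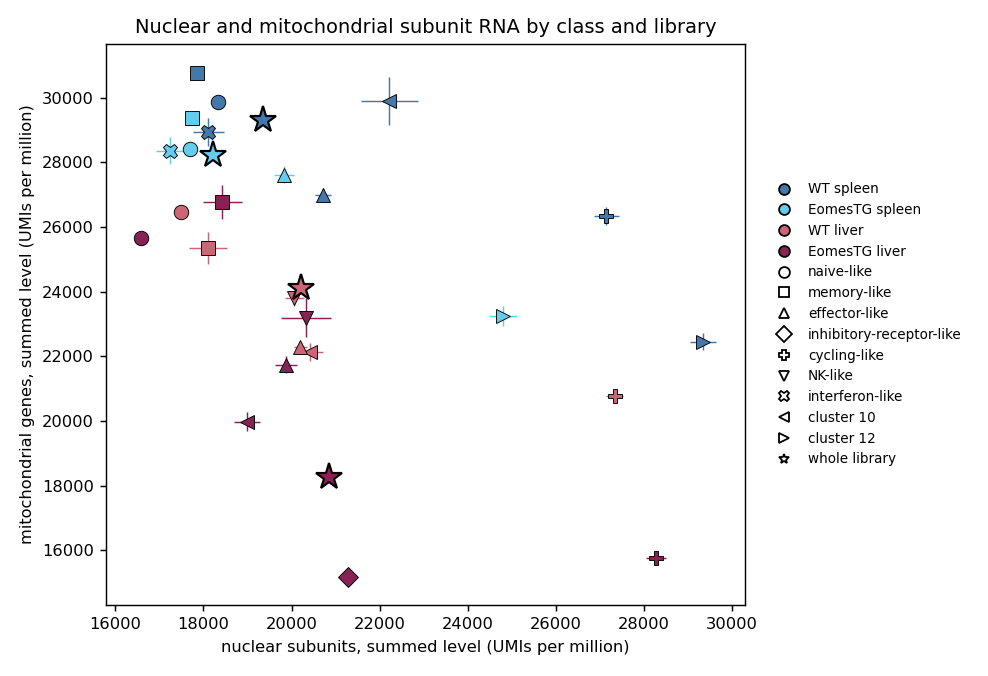
Summed nuclear subunits and summed mitochondrial genes in CPM by class of cells and library, with exact 95% counting intervals, for classes of at least 50 cells. The inhibitory-receptor-like class of EomesTG liver has the lowest mitochondrial sum at 15172 CPM, next to cycling-like cells of the same library at 15770 CPM.

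The inhibitory-receptor-like cells combined the lowest mitochondrial sum with a nuclear sum above that of naive-like cells. In EomesTG liver their mitochondrial genes stood at 15172 CPM [15101 to 15243] against 25676 in naive-like cells, a log2 ratio of -0.76 [-0.77 to -0.75], and their nuclear subunits at 21273 CPM [21189 to 21358] against 16578 [16454 to 16702], 0.36 [0.35 to 0.37]. Per cell they held 57.86 mitochondrial, 81.13 nuclear subunit and 3674.5 other UMIs, and naive-like cells 148.3, 95.77 and 5533.0. In UMIs per cell both sets were thus lower, the mitochondrial one by more than the other RNA and the nuclear one by less.

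Of 71 nuclear subunits, 35 were higher in these cells than in naive-like cells and 2 lower, against 54.7% and 10.7% of all genes, and the nuclear median of 0.32 lay below the median of 0.48 over all genes. The highest were Ndufb8, at 95.82 in naive-like and 198.2 CPM in inhibitory-receptor-like cells (1.05 [0.89 to 1.21]), Ndufb7, at 116.8 and 235.2 (1.01), Cox8a, at 655.1 and 1245 (0.93), and Atp5j, a stalk subunit of complex V, at 243.2 and 444 (0.87). These include the genes that were highest in EomesTG liver as a whole. The lower 2 were Cox7a2l, at 269.6 and 203.3 CPM, and Atp5g2, at 808.7 and 614.3 CPM. By complex the nuclear sum was 0.52 higher for IV, near the median of 0.48 over all genes. The sums were 0.35 for I, 0.27 for V and 0.23 for III, all below that median. Values under the other scalings are not given for this comparison. Of the mitochondrial genes 12 of 13 were lower, from mt-Nd2, at 1152 and 577.9 CPM, to mt-Co2, at 3615 and 2430 CPM (-0.57), and mt-Nd6 stood at 52.0 and 47.72 CPM (-0.12 [-0.35 to 0.11]).

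Cycling-like cells had the highest nuclear sums among the named classes. They stood at 27151 CPM in WT spleen, 27335 in WT liver and 28287 in EomesTG liver, and their mitochondrial genes at 26340, 20761 and 15770. Between the livers the nuclear sum was thus at 0.05 [0.03 to 0.06] beside the mitochondrial gap described above. Against naive-like cells of WT liver, the nuclear sum was 0.65 [0.63 to 0.66] higher, with 60 of 71 nuclear subunits higher and 2 lower beside 39.3% and 14.5% of all genes and a median of 0.71 beside 0.25. Cox5b led at 367.9 and 905 CPM (1.30 [1.22 to 1.37]), followed by Ndufb7 at 121.5 and 294.6 (1.28) and Cox5a at 262 and 622.4. The 2 lower subunits were Cox7a2l, at 234.5 and 154.9 CPM, and Ndufa6 of complex I, at 345.3 and 275.1 CPM. The mitochondrial sum was -0.35 [-0.36 to -0.34], with 8 of 13 genes lower. Per cell, cycling-like cells of WT liver held 280.5 mitochondrial, 369.4 nuclear subunit and 12862 other UMIs. Naive-like cells of WT liver held 165.2, 109.1 and 5968.0. The mitochondrial genes were thus lower in cycling-like cells as a share of UMIs, but higher in UMIs per cell.

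Cluster 12, led by Lad1, Xcl1, Cd200 and Fabp5, was left unnamed. Of 9 cycling genes 3 were higher in it than in the other clusters together. The cycling list summed to 546.3 CPM in it, against 5199 CPM in the cycling-like cluster. The liver barcodes with Siglech UMIs described above also lay in cluster 12. Its nuclear sums were 29346 CPM in WT spleen and 24800 in EomesTG spleen, with mitochondrial sums of 22459 and 23243. NK-like cells of liver stood at 20065 and 20320 CPM for nuclear subunits and at 23802 and 23187 for mitochondrial genes in WT and EomesTG. The genotypes thus lay close together in NK-like cells, of which EomesTG liver held 82 and WT liver 371.

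TCR sequences allowed each clone to be counted once. A clonotype was known for 5068, 5381, 2902 and 3961 of the cells. Each cell without a clonotype kept full weight, so the values are not purely per clone. With this weighting the mitochondrial ratio between the genotypes in liver was -0.06 in place of -0.40, and between liver and spleen of EomesTG -0.22 in place of -0.63. In WT the ratio between liver and spleen was -0.21 in place of -0.28. Each cell was also scaled to its own UMI total in this setting. That scaling with all cells weighted equally gave -0.41, -0.59 and -0.24 for the same ratios. Counting clones once moved the 2 ratios that involve EomesTG liver the most.

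Counts in the lists that follow stand beside 6.18% higher and 8.46% lower of all genes for the genotypes in spleen and 24.9% and 12.2% in liver. Between liver and spleen the shares were 19.3% and 8.38% in WT and 37.4% and 15.1% in EomesTG. Splits under another scaling are given in the order median-of-ratios, then scaling outside mitochondrial and ribosomal protein genes.

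Among the 8 assembly factors of complex I and Atp5s, 0 were higher and 1 lower in EomesTG spleen, 2 higher and 0 lower in EomesTG liver, and 0 either way between WT liver and spleen. Between liver and spleen of EomesTG 4 were higher and 1 lower, with splits of 3 and 2, then 1 and 2, under the other scalings. Atp5s stood at 6.50, 7.25, 6.27 and 10.9 CPM, and Ndufaf2 at 18.01, 13.05, 17.56 and 22.02. Outside the rule, 7 further genes of complex I assembly had 0 higher calls in the 4 comparisons and 0, 2, 1 and 3 lower. Tmem186 stood at 8.31, 9.41, 7.32 and 5.15 CPM, Nubpl, which carries iron-sulfur clusters to complex I, at 6.75, 6.01, 6.06 and 4.08, and Timmdc1 at 18.1, 19.1, 13.5 and 13.8. Tmem186 and Nubpl were the 2 lower in EomesTG than in WT liver, at -0.51 and -0.57, and Tmem186 was at -0.87 between liver and spleen of EomesTG. The 4 subunits of complex II had no call in any of the 4 comparisons, and of cytochrome c and Cyc1, Cycs, the electron carrier between complexes III and IV, was higher in liver in both genotypes, at 177.2, 181.7, 229.9 and 257.4 CPM. Cycs was at 0.38 in WT and 0.50 in EomesTG, calls that neither other scaling kept.

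Assembly genes of the other complexes differed in both directions. Of 19 compared genes of complex IV assembly, 1 was higher and 2 lower in EomesTG spleen, 0 and 3 in EomesTG liver, 1 and 0 between WT liver and spleen, and 5 and 1 between liver and spleen of EomesTG. The last split became 3 and 4, then 2 and 8, under the other scalings. Cox17, a copper chaperone, stood at 136.8, 81.5, 161.8 and 194.9 CPM and Pet100 at 93.2, 56.0, 86.7 and 106.3, both lowest in EomesTG spleen like Atp5k. Sco2, another copper chaperone, stood at 5.36, 8.91, 7.21 and 4.47 CPM, highest in EomesTG spleen and lowest in EomesTG liver. Of 10 genes of complex II and III assembly, 3 were higher and 2 lower in EomesTG liver than in WT liver (2 and 3 under both other scalings), led by Uqcc1 at 16.2 and 30.9 CPM (0.93) and Sdhaf1 at 47.81 and 36.65 CPM (-0.38). Lyrm7, a chaperone of the Rieske protein, was the lowest of that list between liver and spleen of EomesTG, at 8.73 and 4.57 CPM (-0.93). Of 6 genes of ATP synthase assembly and inhibition, Atpif1, the inhibitor of ATP hydrolysis by complex V, stood at 88.6, 74.5, 110.5 and 169.4 CPM and was the 1 called higher between the genotypes in liver, at 0.62. Atpaf1, an ATP synthase assembly factor, was the lowest called of that list, at 22.9 CPM in spleen and 17.4 in liver of WT (-0.40).

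Of 19 compared genes of mitochondrial transcription and RNA, 0 were higher and 7 lower in EomesTG liver than in EomesTG spleen, beside 37.4% and 15.1% of all genes and with a median of -0.19 beside 0.19. The split became 0 and 11, then 0 and 13, under the other scalings. In EomesTG against WT liver 0 were higher and 1 lower, or 0 and 8 under both other scalings: Polg, the mitochondrial DNA polymerase, stood at 19.2, 19.2, 19.5 and 12.8 CPM, lowest in EomesTG liver (-0.61). In spleen 1 was higher and 0 lower in EomesTG, and between WT liver and spleen 0 and 1. The higher one was Polg2, an accessory subunit of that polymerase, at 10.4 and 13.7 CPM (0.39). Of 11 compared nuclear regulators of mitochondrial genes, 2 were higher and 1 lower in EomesTG liver against WT liver: Gabpb1, a partner of an ETS factor, stood at 20.1 and 28.3 CPM (0.49), and Myc at 133.2 and 105.7 CPM (-0.33). Between liver and spleen of EomesTG the extremes were Tfeb, a regulator of lysosome genes, at 9.48 and 15.9 CPM (0.74), and Pprc1, a coactivator, at 16.97 and 11.03 CPM (-0.62).

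In the TCA cycle, which feeds electrons to complexes I and II, 1 of 14 genes was higher and 2 lower in EomesTG than in WT liver (0 and 3 under both other scalings). Idh2, the NADP-linked isocitrate dehydrogenase, stood at 40.0, 48.9, 33.4 and 16.0 CPM, and Idh3a, of the NAD-linked enzyme, at 58.6, 54.1, 77.6 and 103.0 CPM. The enzymes lay on opposite sides in EomesTG liver, at -1.06 and 0.41 to WT liver. Of 13 carriers, uncoupling and antioxidant genes, 2 were higher and 2 lower in that comparison (2 and 4 under both other scalings), among them Prdx5, a peroxiredoxin, at 131.5 and 215.3 CPM (0.71), Ucp2, an uncoupling protein family member, at 790.6 and 1223 CPM (0.63), and Gpx1, a glutathione peroxidase, at 234.9 and 169.3 CPM (-0.47).

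Promoter windows of 300 bases (250 before to 50 after the RefSeq start) were found for 64 of the 80 nuclear subunit genes, as 69 windows among 32851 of the genome (RefSeq, GRCm38.p6). On both strands, 11.6% of the 69 held the NRF1 core GCGCATGCG, against 1.75% of all windows, and 10.1% held the YY1 motif AAGATGGCG, against 1.4%. The ETS motif CCGGAAGT was in 7.25% against 3.89% and the Sp1 motif GGGCGG in 37.7% against 35.7%. The 8 genes with the NRF1 core had log2 ratios of -0.33 to 0.92 between liver and spleen of EomesTG, with a median of 0.0995, and the 53 compared genes without it a median of 0.161. The 8 sites are shown because Atp5g2 and Atp5k, which lay at opposite ends of that comparison, carry the same 10 letters. Each line gives 30 bases in the direction of the gene, with the motif letters of either strand in capitals:
Atp5g2 (chr15:102671070-102671099, minus strand): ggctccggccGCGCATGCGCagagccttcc
Atp5k (chr5:108434430-108434459, minus strand): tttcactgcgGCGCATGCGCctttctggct
Atp5l (chr9:44920963-44920992, minus strand): aaccaataaCGCATGCGCatttcccccact
Cox6a1 (chr5:115349101-115349130, minus strand): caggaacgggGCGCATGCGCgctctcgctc
Ndufa11 (chr17:56717692-56717721, plus strand): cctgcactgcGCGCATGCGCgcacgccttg
Ndufa8 (chr2:36049329-36049358, minus strand): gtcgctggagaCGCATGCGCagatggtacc
Uqcr11 (chr10:80406808-80406837, minus strand): gatcgccttcaCGCATGCGCtatacgtctg
Uqcrc1 (chr9:108936668-108936697, plus strand): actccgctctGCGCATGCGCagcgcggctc

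The 7 genes with the YY1 motif were Atp5j, Atp5j2, Ndufa9, Ndufc1, Ndufs4, Ndufs6 and Ndufs7, with a median log2 ratio of 0.314 between liver and spleen of EomesTG against 0.147 for the 54 compared genes without it. Cox8a and Ndufb8, whose levels were highest in EomesTG liver, have neither the NRF1 core nor the YY1 motif in the whole 300-base window. In that window Cox8a holds the ETS motif and Ndufb8 the Sp1 motif. The 150 bases before each start are shown because both genes led in EomesTG liver. Capitals mark the Sp1 motif, on the opposite strand, in Ndufb8, and no ETS motif lies wholly within the stretch of Cox8a. A match of letters is a description and not a measured binding site.
Cox8a (chr19:7217617-7217766, minus strand): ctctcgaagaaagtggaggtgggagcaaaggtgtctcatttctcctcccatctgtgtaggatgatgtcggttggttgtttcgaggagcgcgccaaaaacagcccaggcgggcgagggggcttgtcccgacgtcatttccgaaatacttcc
Ndufb8 (chr19:44555443-44555592, minus strand): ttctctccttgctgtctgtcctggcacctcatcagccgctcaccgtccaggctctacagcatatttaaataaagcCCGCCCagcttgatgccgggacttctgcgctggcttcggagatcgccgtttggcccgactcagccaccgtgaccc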

How the data were processed

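CD8 T cells of 4 groups were profiled, 1 expression and 1 TCR library each. The expression matrices hold raw UMI counts as deposited by the authors, 1 value per barcode and gene, and their headers, per the file headers, carry software version 3.1.0. Cell Ranger and the build mm10 are named in the submitters' processing notes. The contig tables were deposited by the authors as counts of UMIs and reads per receptor contig. The annotation used for counting, and how reads shared with pseudogenes or overlapping genes were treated, are not given in the sources used here.

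A barcode needed 500 UMIs, 300 genes and a mitochondrial share under 10%, and 80, 48, 177 and 66 barcodes failed. No doublet caller was run; barcodes with 2 productive TRB chains (338, 353, 213 and 176) were kept, with an alternative without them. Cells were scaled to 10000 UMIs and clustered on 2000 variable genes that held none of the members (30 principal components, 15 neighbours, Leiden resolution 1.0, no integration). Clusters were named from marker lists, so class names are rebuilt and not the authors'.

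UMIs were summed over cells and divided by the library total (CPM). Levels have exact Poisson and ratios exact conditional binomial intervals, checked on simulated data. Genes named were all mitochondrial genes, the 5 highest and 5 lowest nuclear ratios of each comparison, fixed isoform families, and the highest and lowest called gene of each pathway list over the 4 comparisons; further genes, such as those in the text on transcript length, classes and motifs, were chosen after their values were seen. The members, lists and rules were chosen with earlier results of these data known. Alternatives changed the mitochondrial limit, the scaling, the weighting of cells and clones, the clusters included, the fold and the UMI minimum. Positions and transcript lengths come from GENCODE M21 (GRCm38) and promoter windows from RefSeq. Software was scanpy 1.11.5, leidenalg 0.10.2, scikit-learn 1.9.0, scipy 1.17.1, pandas 2.3.3, numpy 2.4.6 and matplotlib 3.10.9 under Python 3.11.15.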

Additional observations from a re-analysis of the deposited data

Results flagged for a closer look

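Several ratios pointed in opposite directions in the 2 organs or genotypes. None of these differences could be tested, because each group is 1 library. The ratio of EomesTG to WT was positive in liver and negative in spleen for the nuclear sum (0.044 and -0.088 on the log2 scale), for nuclear complex I (0.037 and -0.098), nuclear complex III (0.022 and -0.035) and nuclear complex IV (0.11 and -0.10). The liver values of these 4 rested on the scaling: they were -0.064, -0.071, -0.086 and 0.0021 with median-of-ratios size factors, and -0.11, -0.12, -0.13 and -0.046 with scaling outside mitochondrial and ribosomal protein genes. The spleen values stayed negative under both, and the nuclear sum in liver was -0.046 with each clone counted once. It was also positive in liver and negative in spleen for Ndufa3 (0.073 and -0.56), Cox7c (0.15 and -0.36) and Cox8a (0.33 and -0.09). Under those 2 scalings the liver values were -0.035 and -0.083 for Ndufa3, 0.040 and -0.0080 for Cox7c, and 0.22 and 0.17 for Cox8a. The mitochondrial genes of complex V were at -0.40 in liver and 0.02 in spleen, and mt-Nd4l at -0.41 and 0.03. The ratio of liver to spleen was positive in EomesTG and negative in WT for Atp5k (0.92 and -0.19) and Ndufa3 (0.55 and -0.09), and it kept these signs under both scalings. For Atp5k, Ndufa3 and Cox7c it was the EomesTG spleen library that lay apart from the other 3.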

How the results depend on the processing

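Comparisons are given below as EomesTG to WT in spleen and in liver, then liver to spleen in WT and in EomesTG. Of 80 sums under another setting 25 moved by less than counting error, 47 moved by more and 8 changed sign, all 8 of them nuclear. Of 48 counts of nuclear subunits past the fold, 29 stayed within 1.5 times and 19 did not; this compares totals, and directions are given below. Among the named genes 0 of 523 ratios past the fold changed sign, and 127 of 1184 ratios under it did. Of all 1707, 693 moved by more than counting error. The causes of these changes were not tested.

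The mitochondrial sums (-0.055, -0.40, -0.28 and -0.63) became -0.047, -0.51, -0.37 and -0.83 with median-of-ratios size factors, and -0.048, -0.56, -0.45 and -0.96 with scaling outside mitochondrial and ribosomal protein genes. They became -0.049, -0.41, -0.24 and -0.59 with each cell weighted equally, and -0.068, -0.48, -0.20 and -0.61 with no limit on the mitochondrial share. With each clone counted once the last 3 were -0.063, -0.21 and -0.22, and without cycling-like cells -0.41, -0.26 and -0.61. Without clusters mostly from 1 library the spleen, liver and EomesTG organ values were -0.048, -0.16 and -0.39. Without barcodes with 2 TRB chains the spleen value was -0.048.

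The nuclear sums (-0.088, 0.044, 0.062 and 0.19) became -0.080, -0.064, -0.021 and -0.0046 with median-of-ratios size factors, and -0.082, -0.11, -0.10 and -0.13 with scaling outside mitochondrial and ribosomal protein genes. They became -0.060, -0.046, -0.00052 and 0.013 with each clone counted once, -0.065, 0.065, 0.018 and 0.15 with each cell weighted equally, and -0.072, 0.073, 0.0022 and 0.15 without cycling-like cells. Without clusters mostly from 1 library the spleen, liver and EomesTG organ values were -0.028, 0.0365 and 0.12. The following were added after seeing the data: without subunits under 500 bases the spleen and WT organ values were -0.067 and 0.085, and without inhibitory-receptor-like cells the liver and EomesTG organ values were 0.0067 and 0.16 for nuclear and -0.12 and -0.35 for mitochondrial genes.

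The counts of nuclear subunits past the fold were 3, 2, 1 and 19. At 1.5-fold those of spleen, liver and EomesTG organs were 1, 1 and 4, and with at least 200 UMIs those of liver and WT organs were 1 and 0. Median-of-ratios size factors gave 5, 2 and 11 for liver, WT organs and EomesTG organs, of which 0, 1 and 5 were higher (1, 1 and 17 as reported). Scaling outside mitochondrial and ribosomal protein genes gave 6 and 4 for liver and WT organs, of which 0 and 1 were higher. Its total of 17 for EomesTG organs is near the 19 reported, but 1 was higher and 16 lower, in place of 17 and 2. With each clone counted once liver and EomesTG organs gave 1 and 6 (1 and 3 higher), and without clusters mostly from 1 library 0 and 9 (0 and 8 higher). Liver gave 6 with each cell weighted equally and 4 without cycling-like cells (5 and 3 higher). Added after seeing the data, leaving out barcodes with genes of other cells gave 1 and 0 for liver and WT organs, and leaving out subunits under 500 bases gave 1 for spleen.

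No paired analysis was possible because each group has 1 library, and for the same reason no replicate was left out. Depth limits the low isoforms: Cox6a2, Cox6b2 and Cox7a1 rest on 51 UMIs or fewer per library.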
